A study of Oryza sativa with 9 samples.

Results

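Heat shock proteins and their co-chaperones were examined in rice spikelets at 8 loci, which carried 13 listed transcripts, out of 832 transcripts of 727 loci in the authors' 3 deposited lists of differential expression. The 8 loci are described in those lists as an HSP70, the HSP90 chaperone HtpG, 2 HSP20 family proteins, 2 DnaJ proteins of subfamily A member 2, a chaperonin GroES and a stress-induced phosphoprotein 1 (STIP1). They were chosen because the authors listed them as differential, at a probability of 0.8 or more, for at least 1 pair of genotypes; the members were thus selected on the authors' means and probabilities. Their listing, direction and size of difference in these lists are therefore a description and are not tested here.

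Chaperones bind proteins that are not yet folded or have lost their fold and keep them from aggregating. HSP70 works through cycles of ATP hydrolysis that DnaJ proteins start, STIP1 (also called HOP) bridges HSP70 and HSP90, and small heat shock proteins such as HSP20 hold unfolded protein without using ATP. Many of these genes are switched on by heat shock transcription factors, and anther development in cereals is known to be sensitive to heat.

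The RNA came from spikelets, the floral units of the rice panicle, of field-grown BC14F2 plants, the selfed progeny of a repeated backcross. The f5 locus, at which hybrids between rice subspecies can become male sterile, segregated in these plants, and the transcriptomes were compared to trace the pathway of that sterility. The groups were heterozygous f5-i/j, homozygous f5-i/i and homozygous f5-j/j, with 3 samples each and the same backcross background in all 9 samples. The labels do not say whether the samples of a genotype were separate plants or pools. The deposited values are 1 mean per genotype in an abundance unit that neither labels nor file headers state, so no value below carries a replicate error, depth is unknown, and no difference could be set against the spread between samples. The lowest mean in the lists is 0.01, and no fold is given against it. Because the unit is not stated, levels are compared between genotypes for 1 transcript or 1 locus, not between genes. In a bulk spikelet sample, fewer cells of a type and less RNA per cell cannot be told apart. Of 11 floral organ identity genes used as spikelet markers, 2 were in the lists, which hold only transcripts called different and so cannot check the tissue. DL (LOC_Os03g11600.1) had the authors' mean of 0.01 for f5-i/j plants, 0.01 in f5-i/i plants and 13.7 in f5-j/j plants. OsMADS2 (LOC_Os01g66030.2) had 31.3 in f5-i/i plants and 5.98 in f5-j/j plants, and its f5-i/j mean was not analysed here. Of 10 tapetum markers only C6 (LOC_Os11g37280.1) was listed, with 34.05 in f5-i/j plants, 33.8 in f5-i/i plants and 0.413 in f5-j/j plants. Neither DL nor C6 was lowest in f5-i/j alone, as most chaperones were, and the part of these markers in the chaperone values was not tested.

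The chaperones were lower in the heterozygote than in either homozygote for most of the transcripts, while the homozygotes lay within 2.11-fold of each other in all but 3 of the 12 transcripts with both means. The exceptions were 2 models of HtpG and 1 DnaJ transcript. In the authors' deposited table of f5-i/j against f5-i/i plants, 12 member transcripts of 7 loci were listed, 11 of them lower in f5-i/j plants, where 46.7% of all 480 listed transcripts were lower, and 1 of them higher, where 53.3% of all were higher. In the authors' deposited table of f5-i/j against f5-j/j plants, 11 transcripts of all 8 loci were listed and 10 were lower in f5-i/j plants, where 55.4% of all 350 listed transcripts were lower, and 1 was higher, where 44.6% of all were higher. Nothing is read from these counts, since the lists chose the members, and both comparisons use the same f5-i/j means. In the authors' deposited table of f5-i/i against f5-j/j plants, only 3 transcripts of 2 loci were listed, 2 of them higher in f5-i/i plants (45.1% of all 421 listed transcripts) and 1 lower (54.9%).

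**Figure D1:**
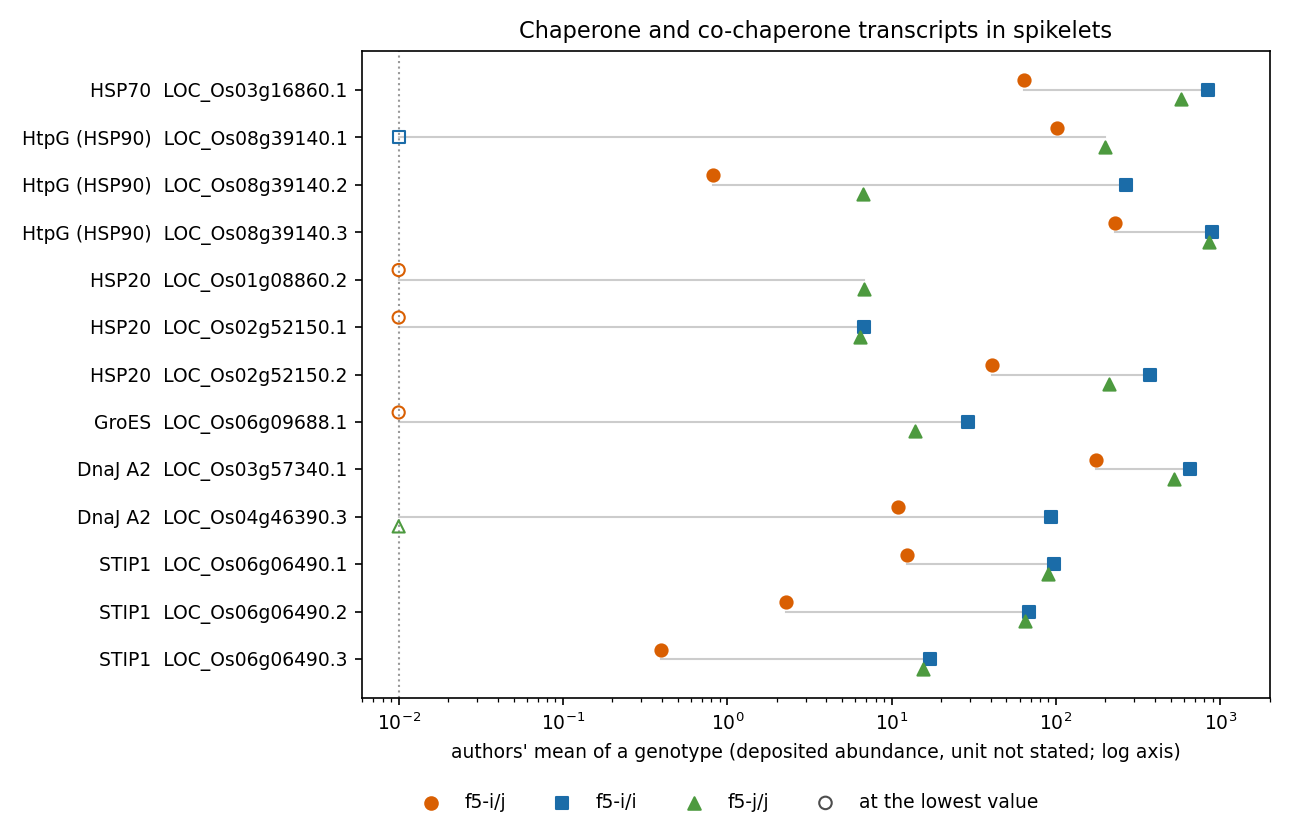
Authors' mean of each genotype (horizontal log axis, unit not stated) for the 13 listed transcripts of the 8 loci. Circles are f5-i/j, squares f5-i/i and triangles f5-j/j, and open symbols stand at the lowest value of 0.01. The f5-i/j circle is leftmost in all transcripts but HtpG LOC_Os08g39140.1 and DnaJ A2 LOC_Os04g46390.3, and no f5-i/i mean was given for LOC_Os01g08860.2.

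The HSP70 transcript LOC_Os03g16860.1, on chromosome 3, is described as heat shock 70kDa protein 1/8, the cytosolic HSP70 that binds unfolded protein. Its authors' mean was 63.9 for f5-i/j plants, 841 in f5-i/i plants and 575 in f5-j/j plants. The heterozygote was the lowest of the 3 genotypes, 13.2-fold below f5-i/i plants and 9.002-fold below f5-j/j plants. The homozygotes differed from each other by 1.46-fold and were not listed as different. The mean of 3 values that cannot be negative limits each of them to 3 times that mean, so no single f5-i/j sample can have been above 192, which is under both homozygote means. Any fold above 3 gives this outcome, and the listed lower transcripts above the lowest value all had folds of at least 2.97. The listing thus nearly fixed it in advance, and nothing is read from it. The probability in the authors' deposited table was 0.855 against f5-i/i plants and 0.847 against f5-j/j plants.

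The HtpG locus LOC_Os08g39140, on chromosome 8, had 3 listed transcript models. The descriptions of 2 of the models point to a RefSeq gene with the synonyms HSP81-1 and HSP82, a cytosolic HSP90 that finishes the folding of signalling proteins. Model LOC_Os08g39140.3, with a coding length of 1845 bases, had the authors' mean of 229 for f5-i/j plants, 886 in f5-i/i plants and 858 in f5-j/j plants. This model was 3.88-fold lower in f5-i/j plants than in f5-i/i plants and 3.75-fold lower than in f5-j/j plants, and the homozygotes lay within 1.03-fold of each other.

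The other two HtpG models separated the homozygotes. Model LOC_Os08g39140.2, of 1938 bases, had the authors' mean of 0.820 for f5-i/j plants, 265 in f5-i/i plants and 6.70 in f5-j/j plants, and so was 323-fold lower in f5-i/j plants than in f5-i/i plants and 39.5-fold higher in f5-i/i plants than in f5-j/j plants. The first of these folds rests on a low f5-i/j mean, and its log2 ratio of -8.34 became -7.19 with a pseudocount of 1. Model LOC_Os08g39140.1, the longest at 2100 bases, went the other way. Its authors' mean was 101 for f5-i/j plants, 0.01 in f5-i/i plants and 200 in f5-j/j plants, so f5-i/i plants alone stood at the lowest value. For this model the heterozygote stood 1.98-fold below f5-j/j plants, a pair that the authors did not list. In f5-i/j and f5-j/j plants the longest model was thus present and the middle one scarce, and in f5-i/i plants the reverse held.

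Summed over its 3 models, the HtpG locus had 330 in f5-i/j plants, 1151 in f5-i/i plants and 1064 in f5-j/j plants. The sum was 3.48-fold lower in f5-i/j plants than in f5-i/i plants and 3.22-fold lower than in f5-j/j plants, while f5-i/i exceeded f5-j/j by only 1.08-fold. The homozygotes thus differed more in the division between models than in the sum. Model LOC_Os08g39140.1 took 30.6% of the sum in f5-i/j plants and 18.8% in f5-j/j plants, and in f5-i/i plants it was at the lowest value. Model LOC_Os08g39140.2 took 0.248% in f5-i/j plants, 23.0% in f5-i/i plants and 0.630% in f5-j/j plants. Model LOC_Os08g39140.3 took most of it in every genotype, with 69.2% in f5-i/j plants, 77.0% in f5-i/i plants and 80.6% in f5-j/j plants. Reads shared by overlapping models are divided by estimate, so single models are less certain than their sum.

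**Figure D2:**
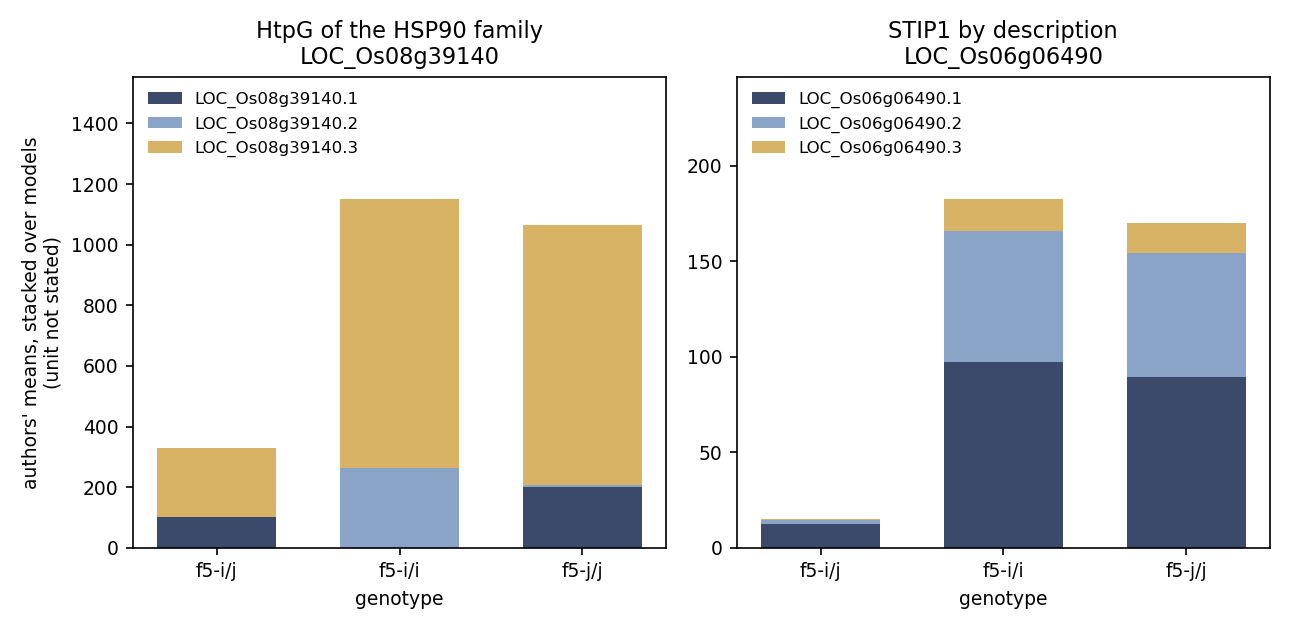
Authors' means stacked over the listed transcript models (vertical axis from 0, unit not stated) of the HtpG locus LOC_Os08g39140 and the locus LOC_Os06g06490, described as STIP1, for the genotypes f5-i/j, f5-i/i and f5-j/j. Both stacks are lowest in f5-i/j plants, at 330 and 15.0, and the HtpG stacks of the homozygotes are of like height but made of different models.

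HSP20 proteins, the small heat shock proteins, were represented by LOC_Os02g52150 on chromosome 2 and LOC_Os01g08860 on chromosome 1. LOC_Os02g52150.2 had the authors' mean of 40.9 for f5-i/j plants, 376 in f5-i/i plants and 209 in f5-j/j plants. It was 9.18-fold lower in f5-i/j plants than in f5-i/i plants and 5.12-fold lower than in f5-j/j plants, and among the members above the lowest value its 1.79-fold gap between homozygotes was the widest that was not listed except that of GroES. The second model, LOC_Os02g52150.1, was scarce everywhere, at 0.01 in f5-i/j plants, 6.80 in f5-i/i plants and 6.39 in f5-j/j plants by the authors' mean. It made up 1.78% of the locus sum in f5-i/i plants and 2.96% in f5-j/j plants. LOC_Os01g08860.2 was listed for 1 pair only, at the authors' mean of 0.01 for f5-i/j plants and 6.79 in f5-j/j plants, and its f5-i/i mean was not analysed here.

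GroES is the co-chaperonin that caps the GroEL barrel, in plants in plastids and mitochondria. LOC_Os06g09688.1, on chromosome 6, had the authors' mean of 0.01 for f5-i/j plants, 29.1 in f5-i/i plants and 13.8 in f5-j/j plants. It was at the lowest value in the heterozygote and detected in both homozygotes, which differed by 2.11-fold without being listed. No listed transcript was described as GroEL.

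DnaJ proteins deliver clients to HSP70 and start its ATP hydrolysis, and the 2 DnaJ A2 loci behaved differently. LOC_Os03g57340.1, on chromosome 3, had the authors' mean of 175 for f5-i/j plants, 653 in f5-i/i plants and 523 in f5-j/j plants. It was lowest in f5-i/j plants, by 3.74-fold against f5-i/i plants and 2.99-fold against f5-j/j plants, the smallest folds among the members listed lower and above the lowest value. The 3-fold limit on a single sample gave 524 for f5-i/j plants, just above the f5-j/j mean, so of the 7 such transcripts it was the only one for which the means alone do not place at least 1 f5-j/j sample above every f5-i/j sample. Against f5-i/i plants, all 9 such transcripts had a homozygote mean above that limit. The list fixed this in advance, since all 112 lower transcripts above the lowest value differed there by at least 3.01-fold. Against f5-j/j plants the smallest fold of the 96 such transcripts was 2.97, so that outcome was nearly fixed too.

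LOC_Os04g46390.3, on chromosome 4, had the authors' mean of 10.95 for f5-i/j plants, 93.8 in f5-i/i plants and 0.01 in f5-j/j plants. The heterozygote lay between the homozygotes here, 8.57-fold below f5-i/i plants and above f5-j/j plants, which stood at the lowest value. It was the only member transcript that the authors listed in all 3 pairs, and the only one higher in f5-i/j plants than in f5-j/j plants.

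The locus LOC_Os06g06490, on chromosome 6, is described as STIP1 and had 3 listed models. Its authors' mean for model LOC_Os06g06490.1 was 12.3 in f5-i/j plants, 97.6 in f5-i/i plants and 89.6 in f5-j/j plants. Model LOC_Os06g06490.2 had 2.29 in f5-i/j plants, 68.1 in f5-i/i plants and 64.8 in f5-j/j plants, and LOC_Os06g06490.3 had 0.393, 17.0 and 15.5 in the same order. All 3 models were low in f5-i/j plants and within 1.10-fold of each other between homozygotes. Their folds were unequal, however, at 7.92, 29.8 and 43.3 below f5-i/i plants and 7.28, 28.3 and 39.5 below f5-j/j plants. The order of the last 2 models, whose f5-i/j means were low, turned with a pseudocount of 1 but not of 0.1. With a pseudocount of 1 the log2 ratios against f5-i/i plants were -2.89 for LOC_Os06g06490.1, -4.39 for LOC_Os06g06490.2 and -3.69 for LOC_Os06g06490.3. Model LOC_Os06g06490.1 accordingly made up 82.1% of the locus sum in f5-i/j plants, 53.4% in f5-i/i plants and 52.7% in f5-j/j plants. The locus sum was 15.0 in f5-i/j plants, 183 in f5-i/i plants and 170 in f5-j/j plants, or 12.2-fold and 11.3-fold lower in the heterozygote.

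The name STIP1 rests on weak similarity at this locus. The best database matches of its models were proteins of maize and of the wild rice Oryza brachyantha, with 0.366 to 0.517 bits of alignment score per residue, and model LOC_Os06g06490.1 was also matched to an interleukin-1 receptor-associated kinase. The other 7 loci matched rice entries with 1.18 to 1.85 bits per residue. A further locus outside the 8, LOC_Os04g45480.1, matched a rice STIP1 entry with 1.599 bits per residue. Its authors' mean was 10.2 for f5-i/j plants and 41.3 in f5-i/i plants, a 4.03-fold lower level in the heterozygote.

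Set among the listed transcripts, the members had median folds near those of all lower transcripts, and single members ranked from near the top to near the bottom. The 9 members lower in f5-i/j plants than in f5-i/i plants and above the lowest value had a median fold of 9.18, against 10.4 for all 112 such transcripts of the authors' deposited table. For f5-j/j the 7 members had a median fold of 7.28, against 7.03 for all 96. HtpG model LOC_Os08g39140.2 ranked as number 3 of the 112, while LOC_Os08g39140.3 and DnaJ A2 LOC_Os03g57340.1 ranked as 102 and 103. Against f5-j/j, LOC_Os03g57340.1 ranked as 95 of 96, and its probability of 0.806 in the authors' deposited table was the nearest to the threshold of all members. A member pair that was not listed in spite of its fold was HtpG model LOC_Os08g39140.2 in f5-i/j against f5-j/j plants, with an 8.17-fold difference between low means, and its probability is not known here. Probabilities were higher, with some overlap, where a mean stood at the lowest value. In the authors' deposited table of f5-i/j against f5-i/i plants it was 0.901 to 0.999 for the 3 members with a mean at 0.01 and 0.813 to 0.982 for the 9 others.

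**Figure D3:**
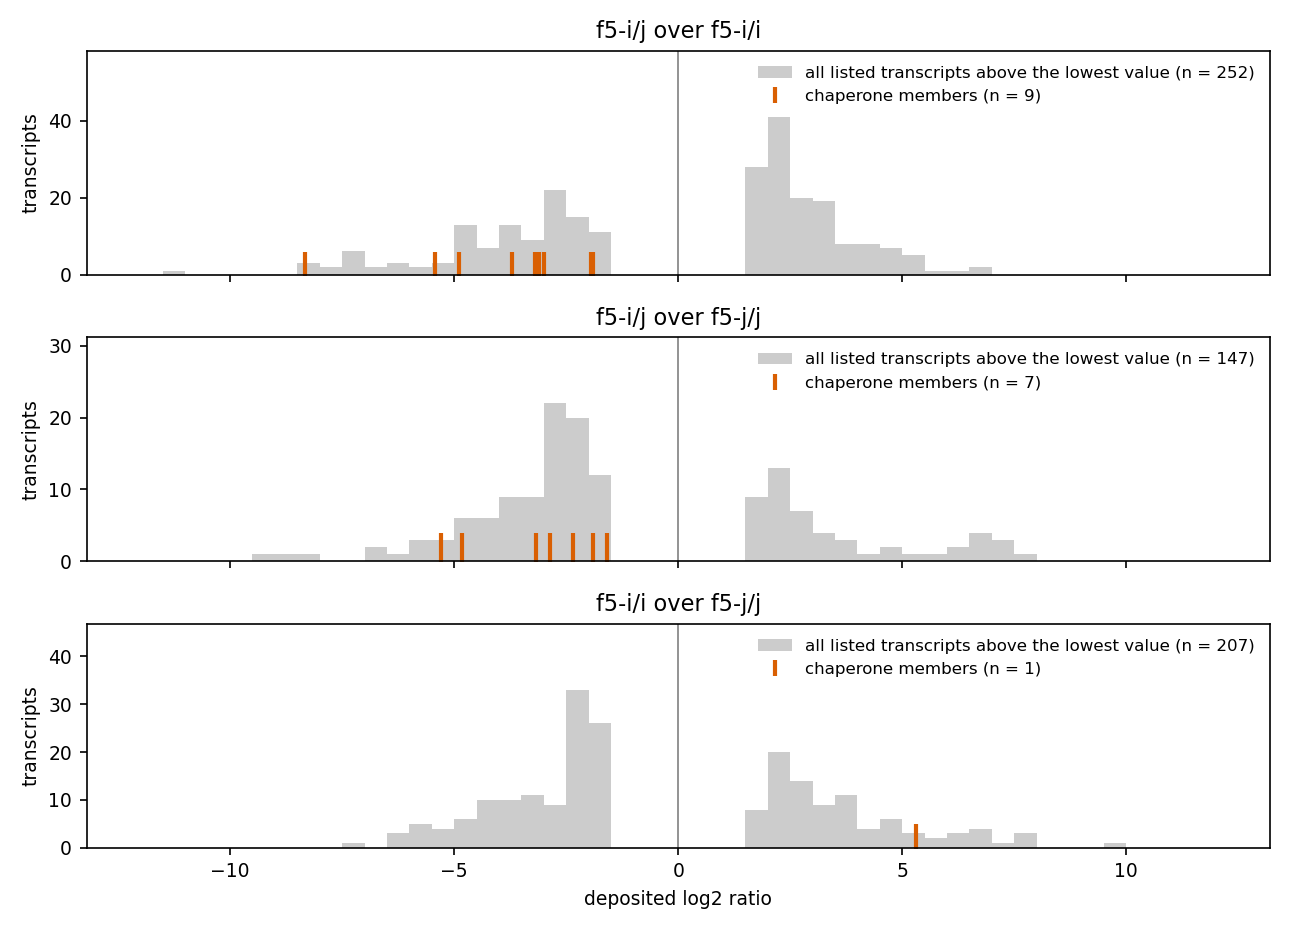
Deposited log2 ratios (horizontal axis) of the listed transcripts above the lowest value in both genotypes, as a histogram (vertical axis, number of transcripts), with the members as vertical ticks. The panels are f5-i/j over f5-i/i, f5-i/j over f5-j/j and f5-i/i over f5-j/j, with 9, 7 and 1 members. Member ticks lie on the negative side in both upper panels and spread over the range of the other lower transcripts.

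The homozygotes could also be compared for members that the authors did not list between them. In 9 transcripts with both means above the lowest value, f5-i/i was the higher of the 2 in all 9, by 1.03-fold to 2.11-fold with a median of 1.10-fold. Among all 93 transcripts listed lower in f5-i/j plants in both authors' deposited tables, above the lowest value in both homozygotes and not listed between them, 52 (55.9%) were higher in f5-i/i plants, with a median of 1.07-fold. The 93 include the 9, and the 9 include 3 models of LOC_Os06g06490 and 2 of LOC_Os02g52150, which are not separate genes. These gaps are small and carry no replicate error. Of the 12 members with a mean in all genotypes, 10 had the smallest mean in f5-i/j plants, 1 in f5-i/i plants and 1 in f5-j/j plants. Over all 407 transcripts with 3 means, 115 were lowest in f5-i/j plants, 125 in f5-i/i plants, 69 in f5-j/j plants, and 98 had 2 genotypes tied at the lowest mean. A transcript has 3 means only if it was listed in at least 2 pairs, which favours such patterns.

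By their locus identifiers the 8 loci lie on 6 of the 12 chromosomes, and none is on chromosome 5, as 10.7% of all 727 listed loci are. Several listed models were found for 3 of the 8 loci, against 10.7% of all listed loci, a count that comes from the same lists as the choice of members. The gene ontology term of response to stimulus was attached to 2 of the 8 loci, against 0.825% of all, and that of cellular protein metabolic process to 4, against 1.79%. These terms overlap with the descriptions by which the loci were named, so nothing is read from them.

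The closest profiles to that of HSP70 LOC_Os03g16860.1 were sought among the 164 transcripts, itself included, with all 3 means above the lowest value. Likeness was the distance between pairs of log2 ratios, f5-i/j over f5-i/i and f5-i/j over f5-j/j, which share the f5-i/j mean and span only 3 genotypes. The nearest were the models LOC_Os10g28340.2 and LOC_Os10g28340.3 of 1 heat shock transcription factor, with identical values and a distance of 0.140. Their authors' mean was 7.45 for f5-i/j plants, 89.2 in f5-i/i plants and 68.2 in f5-j/j plants. These models were low in the heterozygote, with the homozygotes 1.31-fold apart. The HSP20 LOC_Os06g14240.1 followed at 0.158, with 2.38 in f5-i/j plants, 30.8 in f5-i/i plants and 19.3 in f5-j/j plants. LOC_Os06g39240.1, described as a putative transcription factor, stood at 0.169, with 14.6, 175 and 122 in the same order. The heat shock transcription factor LOC_Os04g48030.1 was at 0.319, with 2.52 in f5-i/j plants, 41.2 in f5-i/i plants and 23.9 in f5-j/j plants.

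The other chaperones of the lists, found by words in the descriptions, numbered 13 transcripts of 13 loci besides the heat shock transcription factors, and 2 of these matched only through a lower-ranked description. Those 2 were LOC_Os12g06740.2, with the authors' mean of 0.01 for f5-i/j plants, 3.74 in f5-i/i plants and 4.74 in f5-j/j plants, and LOC_Os12g03070.2, with 10.6 in f5-i/j plants, 0.01 in f5-i/i plants and 5.26 in f5-j/j plants. Their best-ranked descriptions are a SWI/SNF chromatin regulator and a cytochrome-b5 reductase, not chaperones. The counts below include LOC_Os12g06740.2 as lower in f5-i/j plants in both comparisons. LOC_Os12g03070.2 is the 1 counted higher against f5-i/i plants, and is among the 5 listed between the homozygotes. In the authors' deposited table of f5-i/j against f5-i/i plants, 6 of 7 were lower in f5-i/j plants, beside 46.7% of all listed transcripts, and against f5-j/j plants 8 of 9 were lower, beside 55.4% of all. Those lower and above the lowest value, 5 in each comparison, had median folds of 5.92 and 5.68, beside 10.4 and 7.03 over all listed transcripts of that kind. Between the homozygotes all 5 that were listed were lower in f5-i/i plants, beside 54.9% of all listed transcripts. The heat shock transcription factors were lower in f5-i/j plants in all 13 listed transcripts of 5 loci against f5-i/i plants (46.7% of all) and in all 9 of 5 loci against f5-j/j plants (55.4% of all), with median folds of 23.5 and 9.47. Models of a locus with identical values, such as LOC_Os10g28340.2 and LOC_Os10g28340.3, are counted separately in these counts and medians. The medians therefore lean on the loci with several models. Their largest folds above the lowest value were those of 4 models of LOC_Os03g53340 with identical values against f5-i/i plants, among them LOC_Os03g53340.1 with the authors' mean of 0.107 for f5-i/j plants and 16.3 in f5-i/i plants. Against f5-j/j plants the largest were those of LOC_Os03g46052.1, at 0.517 in f5-i/j plants and 22.0 in f5-j/j plants, and of 2 models of LOC_Os08g43334, with LOC_Os08g43334.2 at 1.37 and 34.6 and LOC_Os08g43334.1 at 0.337 and 8.06. Between the homozygotes the model LOC_Os03g53340.4 stood apart, with 24.9 in f5-i/i plants and 0.0267 in f5-j/j plants, the second of which is near the lowest value. Its f5-i/j mean of 0.793 was above that of f5-j/j plants, a pair that the authors did not list. Of the 9 heat shock transcription factor transcripts with 3 means, 8 were lowest in f5-i/j plants and this 1 in f5-j/j plants.

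Lower in the heterozygote among the other chaperones was the HSP20 LOC_Os03g16020.1, with the authors' mean of 28.9 for f5-i/j plants and 171 in f5-i/i plants. The DnaJ B4 transcript LOC_Os05g48810.1, another partner of HSP70, had 20.0 in f5-i/j plants, 142 in f5-i/i plants and 122 in f5-j/j plants. Both were low in the heterozygote, and for DnaJ B4 the homozygotes were near each other. LOC_Os02g52270.2, matched weakly at 0.547 bits per residue to DnaJ B11, in mammals a chaperone of the endoplasmic reticulum, had 6.53 in f5-i/j plants and 29.4 in f5-i/i plants. The beta subunit of the TCP-1 chaperonin (LOC_Os03g42220.2), which folds actin and tubulin, was the only other chaperone listed higher in f5-i/j plants than in f5-j/j plants. It had the authors' mean of 9.50 for f5-i/j plants and 0.01 in f5-j/j plants, and its f5-i/i mean was not analysed here.

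Calnexin, calreticulin and DnaJ C3, known as proteins of the endoplasmic reticulum, had another order, with f5-j/j above both other genotypes. Calnexin and calreticulin hold newly made glycoproteins until they are folded. Calnexin LOC_Os04g32950.4 had the authors' mean of 0.01 for f5-i/j plants, 0.01 in f5-i/i plants and 17.6 in f5-j/j plants. Calreticulin LOC_Os07g14270.2 had 0.01 in f5-i/j plants, 0.01 in f5-i/i plants and 8.53 in f5-j/j plants. Both were above the lowest value in f5-j/j plants only. DnaJ C3 (LOC_Os01g74580.2), in mammals a co-chaperone of the reticulum, had 4.14 in f5-i/j plants, 2.89 in f5-i/i plants and 21.7 in f5-j/j plants. DnaJ B6 (LOC_Os02g54130.3), in mammals a protein of cytosol and nucleus and here a weak match of 0.563 bits per residue, had the same order, with 9.12 in f5-i/j plants, 7.42 in f5-i/i plants and 39.4 in f5-j/j plants. A protein disulfide isomerase A6 (LOC_Os03g18200.2), named from a weak match of 0.186 bits per residue, had 8.97 in f5-i/j plants and 50.9 in f5-j/j plants. These 5 transcripts were lower in f5-i/j plants than in f5-j/j plants, and the 4 with an f5-i/i mean were low in f5-i/i plants as well, unlike HSP70, the HtpG sum, HSP20 LOC_Os02g52150 and the STIP1 locus, where f5-i/i was as high as f5-j/j or higher. The order is not particular to them, since the single HtpG model LOC_Os08g39140.1 also had f5-j/j highest. That model had 101 in f5-i/j plants, 0.01 in f5-i/i plants and 200 in f5-j/j plants. DnaJ B11 (LOC_Os02g52270.2), also a reticulum chaperone in mammals, is not among the 5. It was higher in f5-i/i plants, at 29.4, than in f5-i/j plants, at 6.53, and its f5-j/j mean was not analysed here. The 5 were grouped after their values were seen, and the difference between the groups was not tested.

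**Figure D4:**
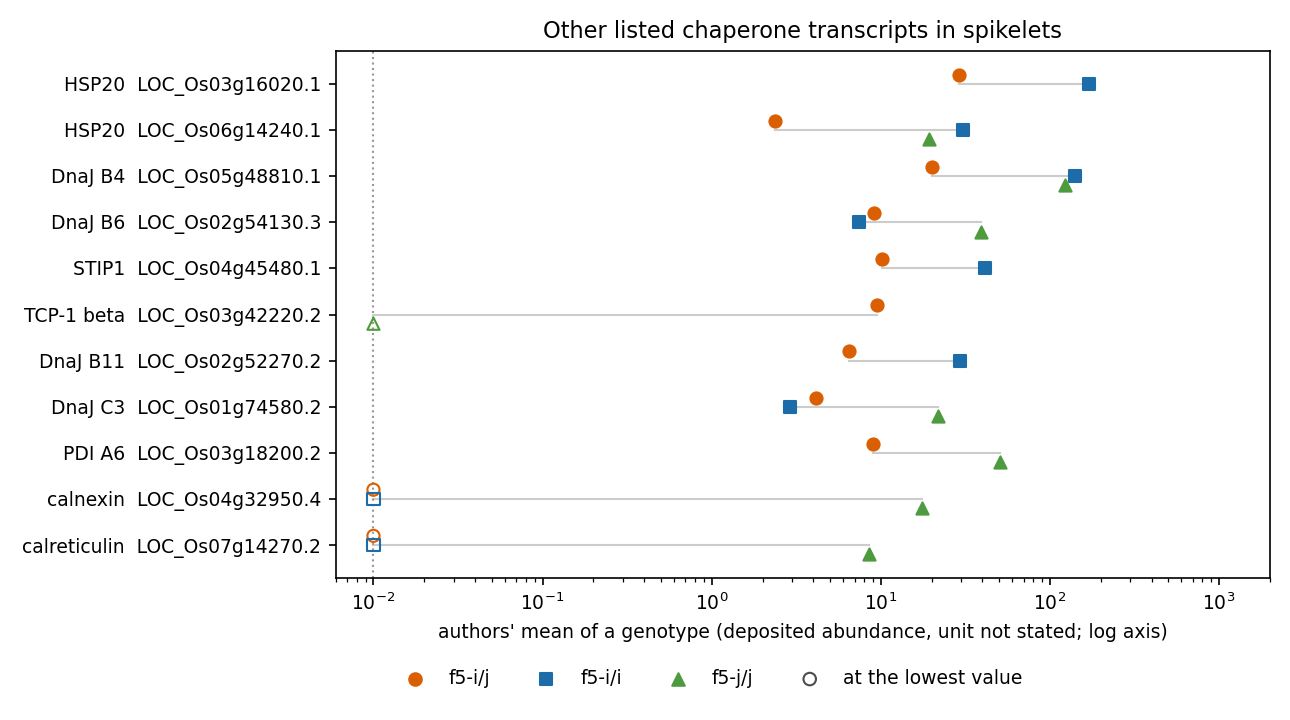
Authors' mean of each genotype (horizontal log axis, unit not stated) for the 11 other chaperone transcripts whose best-ranked description names a chaperone. Circles are f5-i/j, squares f5-i/i and triangles f5-j/j, open symbols stand at 0.01, and a missing symbol means that no mean was given. HSP20 LOC_Os06g14240.1 and DnaJ B4 are low in f5-i/j alone, while calnexin, calreticulin, DnaJ B6 and DnaJ C3 are low in both f5-i/j and f5-i/i.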

How the data were processed

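Per the labels' protocols, polyA RNA of spikelets was fragmented before random-primed cDNA synthesis and Illumina sequencing. The submitters' processing notes name the tools BWA, Bowtie and RSEM with neither version nor role. Genome build, annotation, normalization and strandedness were not given in the sources used here. Per the file headers, the deposited lists hold signal means of each genotype, their log2 ratio, and a probability, a score of at least 0.8 in the authors' lists and not a p-value. The lengths deposited by the authors are coding lengths, since 100% are multiples of 3. All deposited means are whole multiples of 1 in 300, as means of 3 values with 2 decimals would be. Columns were assigned to genotypes by table name, and the means of a transcript found in several tables were the same.

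Log2 ratios were recomputed from the means and differed by 0 at 6 decimals. The lists are filtered, so the number of transcripts tested is unknown and shares refer to listed transcripts. Single samples have no value in these lists, and so no test over samples, interval or leave-one-out could be made. Means of the models of a locus were summed, which assumes a unit that adds up over models. Reads of near-identical heat shock genes can be split by the authors' counting, which makes single members uncertain. Members and lists were chosen with earlier results of these data known. The text names every listed member transcript, the other chaperones with the largest ratios, and the 5 profiles nearest to HSP70. All 11 other chaperones whose best-ranked description is of that kind were shown. Of the 8 loci, 2 were matched to RefSeq genes (assembly ASM3414082v1), whose names alone were used. Scripts in Python 3.11.15 with pandas 2.3.3 were tested on simulated lists. The alternatives tried were a stricter probability, a stricter ratio, leaving out the lowest value, loci as units, pseudocounts of 1 and 0.1, and other sums over models.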

Additional observations from a re-analysis of the deposited data

How the results depend on the processing

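The number of members listed lower for f5-i/j over f5-i/i was 11 as deposited, 9 at an absolute log2 ratio of at least 2, 9 above the lowest value, 6 with loci as units and 3 at a probability of at least 0.9. Against f5-j/j it was 10 as deposited, 8, 7 and 7 under the first 3 of these, and 2 at a probability of at least 0.9. At that probability 63 of 112 and 53 of 99 of all listed transcripts were lower, and the score was higher for members with a mean at 0.01. Of all listed transcripts against f5-i/i, 213 of 441 were lower at the stricter ratio and 112 of 252 above the lowest value. With loci as units 190 of 415 were lower. Against f5-j/j the same counts were 182 of 329, 96 of 147 and 166 of 305. The members listed higher in f5-i/j (1 in each table) were different transcripts. They were HtpG LOC_Os08g39140.1 against f5-i/i and DnaJ A2 LOC_Os04g46390.3 against f5-j/j. Neither was counted above the lowest value (0 in both), nor was the first with loci as units against f5-i/i (0). Of all listed transcripts above the lowest value, 140 of 252 and 51 of 147 were higher, and 225 of 415 loci were higher against f5-i/i. For f5-i/i over f5-j/j, the 2 higher became 1 and the 1 lower became 0 above the lowest value, and the same 1 and 0 with loci as units. Of all listed transcripts above the lowest value, 89 of 207 were higher in f5-i/i plants and 118 lower. With loci as units 168 of 371 were higher and 203 lower. No locus sum changed sign under another sum. A pseudocount added to both means cannot change the sign of a log2 ratio, so it was no check of direction. Of 26 member ratios, 12 moved by over 1.5 times with a pseudocount of 1 and 9 with 0.1. Of 37 locus sums under another sum 2 did, both of LOC_Os06g06490 with its most abundant model alone. Its log2 ratio went from -3.61 to -2.99 against f5-i/i plants and from -3.50 to -2.86 against f5-j/j plants. Sums of loci with 1 listed model could not move, so the 2 of 37 is no measure of stability. No paired analysis was possible because the deposited tables hold 1 mean per genotype, so neither the replicate block nor leaving out a replicate was run. Depth is unknown and replicate spread could not be measured.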
